A study of Mus musculus with 4 samples.

Results

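*Cebpa*, *Cebpb*, *Cebpd*, *Cebpe*, *Spi1*, *Klf2*, *Klf4*, *Klf6* and *Irf8* encode transcription factors that direct the formation or tune the activation of myeloid cells. They were taken by gene name from the expression tables of 4 cardiac neutrophil libraries, and they are 9 of the 25655 genes listed there.

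As background, C/EBP alpha and PU.1, the product of *Spi1*, set up the myeloid programme in bone marrow progenitors, and C/EBP epsilon then drives granule genes as neutrophils mature. C/EBP beta sustains neutrophil production under stress, and inflammatory cytokines induce both it and C/EBP delta. IRF8 favours monocytes and dendritic cells over granulocytes, KLF4 promotes monocyte differentiation, KLF2 restrains inflammatory activation and KLF6 supports it in macrophages.

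The cells came from hearts of male mice on a C57BL/6 background, 8 to 12 weeks old, that were wild type (WT) or lacked *Cd300a* (*Cd300a*-/-), the gene for an inhibitory receptor of myeloid cells. The left anterior descending coronary artery was tied for 60 minutes and reopened (myocardial ischemia and reperfusion), and hearts were collected on day 3. CD45.2+ CD11b+ Ly6G+ cells were sorted by surface SiglecF into a positive fraction, SiglecF hi, and a fraction with little or none, SiglecF lo. Each of the 4 groups is 1 library from the pooled cells of 8 hearts. The spread between mice is therefore unknown, no difference has a replicate check, and females were not studied. The comparisons ask what goes with the loss of the receptor in each fraction, and what separates the fractions in each genotype. Each library enters 2 of the 4 comparisons, so the comparisons are not independent of each other.

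The total count was 9631901 in WT SiglecF lo, 19278243 in WT SiglecF hi, 10988619 in *Cd300a*-/- SiglecF lo and 17632989 in *Cd300a*-/- SiglecF hi. In the same order, 12931, 15160, 12777 and 14470 genes had a count above 0. Levels are given in TPM, a count of transcripts adjusted for gene length and scaled to the same total in each library. Intervals are 95% counting intervals, and they cover counting error only. Whether reads or read pairs were counted is not given in the sources used here. If both reads of a pair were counted, the intervals are too narrow, and those of ratios that exclude 0 by little, such as several of *Cebpe* and *Irf8*, could include it.

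Of the genes that check the labels, *Cd300a* had 127 TPM in WT SiglecF lo, 163 TPM in WT SiglecF hi, 1.06 TPM in *Cd300a*-/- SiglecF lo and 0.740 TPM in *Cd300a*-/- SiglecF hi. *Siglecf* had 11.3 TPM in WT SiglecF lo, 354 TPM in WT SiglecF hi, 15.3 TPM in *Cd300a*-/- SiglecF lo and 405 TPM in *Cd300a*-/- SiglecF hi. Both genes followed the labels. *Ly6g*, the sort marker of neutrophils, had 330 TPM in WT SiglecF lo, 11.1 TPM in WT SiglecF hi, 889 TPM in *Cd300a*-/- SiglecF lo and 41.9 TPM in *Cd300a*-/- SiglecF hi. Its transcript was present in every library and lower in both SiglecF hi libraries, although all the cells were sorted as Ly6G+.

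All 8 neutrophil marker genes were above 0 in every library. Their summed level was 153887 TPM in WT SiglecF lo, 26543 TPM in WT SiglecF hi, 202615 TPM in *Cd300a*-/- SiglecF lo and 31231 TPM in *Cd300a*-/- SiglecF hi, with *S100a9* the most abundant of them. *S100a8* and *S100a9* together took 13.8% of all TPM in WT SiglecF lo, 2.41% in WT SiglecF hi, 17.3% in *Cd300a*-/- SiglecF lo and 2.78% in *Cd300a*-/- SiglecF hi. Because TPM sum to a fixed total, the share taken by such genes bears on every other gene's TPM. The median ratio of TPM + 1 over the 6523 genes with a mean over 10 TPM was 1.44 for SiglecF hi over SiglecF lo in WT and 1.53 in *Cd300a*-/-. Ratios between libraries are therefore given as log2 of that ratio, centred on the median of those 6523 genes, which lay at 0.53 for the fractions in WT and 0.61 in *Cd300a*-/-. That median was 0.04 for *Cd300a*-/- over WT in SiglecF hi and −0.02 in SiglecF lo, so centring hardly moves the ratios between genotypes. A gene counts as past the threshold when its centred ratio lies beyond 0.5 in either direction.

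All 9 factors were detected in every library and all passed the limit of 10 TPM on the mean. Together they summed to 4994 TPM in WT SiglecF lo, 4491 TPM in WT SiglecF hi, 5190 TPM in *Cd300a*-/- SiglecF lo and 4844 TPM in *Cd300a*-/- SiglecF hi. *Cebpb* alone made up 59.9%, 53.6%, 59.2% and 55.1% of these sums. The set is thus led by 1 gene far above the others and ends with *Cebpe* below 20 TPM in each library.

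**Figure D1:**
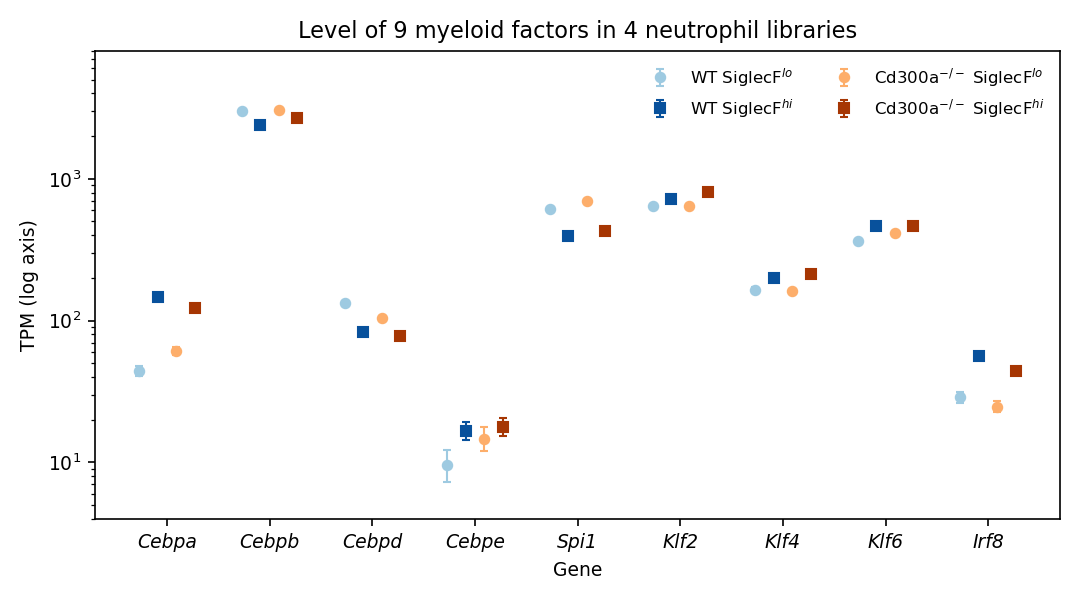
Level of each of the 9 factors in TPM on a log axis, 1 point per library and gene, with bars for the 95% counting interval. *Cebpb* sits at 2994 and 3072 TPM in the SiglecF lo libraries, and *Cebpa* and *Irf8* show the widest range among the 9.

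Among the C/EBP factors, *Cebpa*, which commits progenitors to the granulocyte and monocyte line, had 43.9 TPM (interval 40.4 to 47.5) in WT SiglecF lo and 146 TPM (142 to 151) in WT SiglecF hi. In *Cd300a*-/- it had 60.8 TPM (56.9 to 64.9) in SiglecF lo and 124 TPM (119 to 128) in SiglecF hi. Both SiglecF hi libraries lay above both SiglecF lo libraries, and the *Cd300a*-/- pair lay inside the range of the WT pair. The order from high to low was WT SiglecF hi, *Cd300a*-/- SiglecF hi, *Cd300a*-/- SiglecF lo and WT SiglecF lo, and each neighbour differed from the next beyond counting error. Its highest TPM was 3.34 times its lowest, the widest ratio among the 9 factors.

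*Cebpb*, the factor of emergency granulopoiesis, had 2994 TPM in WT SiglecF lo, 2408 TPM in WT SiglecF hi, 3072 TPM in *Cd300a*-/- SiglecF lo and 2668 TPM in *Cd300a*-/- SiglecF hi. By TPM it ranked 29, 48, 30 and 44 among all genes of those libraries. It was the most abundant of the 9 in each library and somewhat lower in the SiglecF hi libraries, with all neighbours in the order apart beyond counting error.

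*Cebpd*, a factor of the acute response to cytokines, had 133 TPM in WT SiglecF lo, 83.3 TPM in WT SiglecF hi, 104 TPM in *Cd300a*-/- SiglecF lo and 77.9 TPM in *Cd300a*-/- SiglecF hi. It was lower in both SiglecF hi libraries, and each step of its order exceeded counting error. *Cebpe*, the factor of late granulocyte maturation, had 9.57 TPM (7.32 to 12.3) in WT SiglecF lo and 16.7 TPM (14.4 to 19.3) in WT SiglecF hi. In *Cd300a*-/- it had 14.6 TPM (11.95 to 17.8) in SiglecF lo and 17.8 TPM (15.3 to 20.7) in SiglecF hi. These levels rest on 61, 182, 103 and 174 counts in the order WT SiglecF lo, WT SiglecF hi, *Cd300a*-/- SiglecF lo and *Cd300a*-/- SiglecF hi. At this depth the 3 upper libraries could not be ordered step by step, and WT SiglecF lo lay below *Cd300a*-/- SiglecF lo beyond counting error.

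Ratios of TPM between members of a library do not depend on how libraries are scaled. *Cebpa* stood at 1.47% of *Cebpb* in WT SiglecF lo (interval 1.35 to 1.59), 6.08% in WT SiglecF hi (5.87 to 6.30), 1.98% in *Cd300a*-/- SiglecF lo (1.85 to 2.12) and 4.63% in *Cd300a*-/- SiglecF hi (4.45 to 4.82). The alpha to beta balance was thus higher in SiglecF hi in each genotype, and the fractions lay closer together without the receptor gene. *Cebpd* was 4.44%, 3.46%, 3.38% and 2.92% of *Cebpb* in the order WT SiglecF lo, WT SiglecF hi, *Cd300a*-/- SiglecF lo and *Cd300a*-/- SiglecF hi. *Cebpe* was 0.320%, 0.694%, 0.477% and 0.669% of *Cebpb* in that order. Against *Cebpb*, *Cebpd* was thus lower and *Cebpe* higher in SiglecF hi than in SiglecF lo of the same genotype.

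*Spi1*, which encodes PU.1, had 611 TPM in WT SiglecF lo, 395 TPM in WT SiglecF hi, 693 TPM in *Cd300a*-/- SiglecF lo and 430 TPM in *Cd300a*-/- SiglecF hi. Both SiglecF hi libraries lay below both SiglecF lo libraries, and all neighbours differed beyond counting error. PU.1 and C/EBP alpha act together in granulocyte and monocyte choice, and *Spi1* stood at 13.9 times the TPM of *Cebpa* in WT SiglecF lo, 2.70 times in WT SiglecF hi, 11.4 times in *Cd300a*-/- SiglecF lo and 3.48 times in *Cd300a*-/- SiglecF hi.

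*Klf2*, a factor of quiescence, had 645 TPM in WT SiglecF lo, 721 TPM in WT SiglecF hi, 646 TPM in *Cd300a*-/- SiglecF lo and 802 TPM in *Cd300a*-/- SiglecF hi. *Klf4*, a monocyte factor, had 165 TPM in WT SiglecF lo, 199.8 TPM in WT SiglecF hi, 162 TPM in *Cd300a*-/- SiglecF lo and 214 TPM in *Cd300a*-/- SiglecF hi. *Klf6*, a factor of macrophage activation, had 364 TPM in WT SiglecF lo, 464 TPM in WT SiglecF hi, 414 TPM in *Cd300a*-/- SiglecF lo and 467 TPM in *Cd300a*-/- SiglecF hi. In TPM all 3 were higher in both SiglecF hi libraries, by less than the typical gene, so that after centring all 3 were lower there. Counting error covered the step between the SiglecF lo libraries for *Klf2* and *Klf4* and the step between the SiglecF hi libraries for *Klf6*. The highest TPM over the lowest was 1.24 for *Klf2*, 1.32 for *Klf4* and 1.28 for *Klf6*, so these genes varied little.

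The balance among the KLF factors was also narrow. *Klf2* stood at 3.91 times the TPM of *Klf4* in WT SiglecF lo, 3.61 times in WT SiglecF hi, 3.99 times in *Cd300a*-/- SiglecF lo and 3.75 times in *Cd300a*-/- SiglecF hi. Against *Klf6* it stood at 1.77, 1.55, 1.56 and 1.72 times in the same order.

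*Irf8*, the factor of monocyte and dendritic cell fate, had 28.8 TPM in WT SiglecF lo, 56.7 TPM in WT SiglecF hi, 24.8 TPM in *Cd300a*-/- SiglecF lo and 44.4 TPM in *Cd300a*-/- SiglecF hi. It was higher in both SiglecF hi libraries and, within each fraction, lower in *Cd300a*-/- than in WT, with every neighbour in the order apart beyond counting error. *Spi1* stood at 21.2 times the TPM of *Irf8* in WT SiglecF lo, 6.96 times in WT SiglecF hi, 28.0 times in *Cd300a*-/- SiglecF lo and 9.68 times in *Cd300a*-/- SiglecF hi. PU.1 pairs with IRF8 on DNA, and the transcript of the partner IRF8 was the scarcer one throughout.

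**Figure D2:**
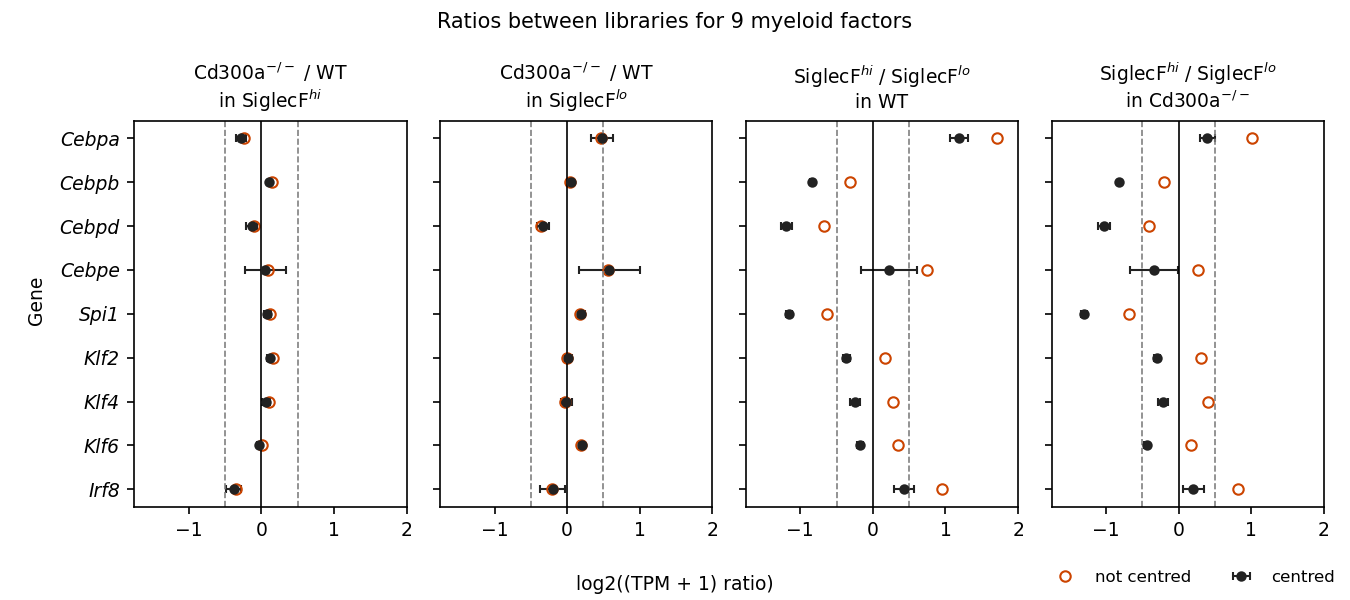
Ratios of TPM + 1 between libraries on the log2 scale for the 9 factors, centred (filled, with 95% counting intervals) and not centred (open), with dashed lines at 0.5 either way. Between fractions the 3 *Klf* genes lie below 0 when centred and above 0 when not, and *Cebpe* in *Cd300a*-/- does the same.

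Between the fractions in WT, *Cebpa* was higher in SiglecF hi by 1.19 after centring (interval 1.07 to 1.31) and by 1.72 before it. *Cebpd* had a ratio of −1.19 (−1.27 to −1.12) centred and −0.67 uncentred. *Spi1* had −1.16 (−1.20 to −1.11) centred and −0.63 uncentred. *Cebpb* lay at −0.84 centred and at −0.31 uncentred, so its place past the threshold needs the centring, whereas the other 3 genes were past it both ways. *Irf8* lay at 0.42 centred (0.29 to 0.56), short of the threshold, and at 0.95 uncentred. *Cebpe* lay at 0.22 centred, with an interval of −0.16 to 0.60 that includes 0, and at 0.75 uncentred. The *Klf* genes lay at −0.37 for *Klf2*, −0.25 for *Klf4* and −0.18 for *Klf6* when centred, and their direction flipped to 0.16, 0.28 and 0.35 without centring.

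In counts, 1 of the 9 factors (*Cebpa*) was past the threshold as higher in WT SiglecF hi, beside 19.3% of the 6523 tested genes. The 3 lower factors (*Cebpb*, *Cebpd* and *Spi1*) stand beside 20.9% of tested genes. Without centring, 3 factors (*Cebpa*, *Cebpe* and *Irf8*) were past it as higher beside 51.9% of tested genes, and 2 (*Cebpd* and *Spi1*) as lower beside 7.47%. With so few genes, these counts do not set the factors apart from the rest of the transcriptome. The median ratio of the 9 was −0.25 centred and 0.28 uncentred, so the direction of the group as a whole flips with the scaling. In bulk libraries, fewer cells of a type and less RNA per cell cannot be told apart.

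Between the fractions in *Cd300a*-/-, *Cebpa* was higher in SiglecF hi by 0.40 after centring (0.29 to 0.50) and by 1.01 before it, which is below the threshold in the centred form. *Spi1* had a ratio of −1.30 (−1.35 to −1.26) centred and −0.69 uncentred. *Cebpd* had −1.02 (−1.11 to −0.94) centred and −0.41 uncentred, and *Cebpb* −0.82 centred and −0.20 uncentred. Of these lower genes, only *Spi1* was past the threshold on both scales. *Irf8* lay at 0.20 centred (0.06 to 0.35) and 0.82 uncentred. *Cebpe* lay at −0.34 centred (−0.67 to −0.01) and changed direction to 0.27 uncentred. The *Klf* genes lay at −0.30 for *Klf2*, −0.21 for *Klf4* and −0.44 for *Klf6* centred, and their direction flipped to 0.31, 0.40 and 0.17 uncentred.

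Here 0 of the 9 factors were past the threshold as higher, beside 21.2% of tested genes, and 3 (*Cebpb*, *Cebpd* and *Spi1*) as lower, beside 23.6%. Without centring, 2 factors (*Cebpa* and *Irf8*) were past it as higher beside 56.6% of tested genes, and 1 (*Spi1*) as lower beside 7.97%. The median of the 9 was −0.34 centred and 0.27 uncentred. After centring, the inflammatory C/EBP genes *Cebpb* and *Cebpd* and the PU.1 gene were thus past the threshold as lower in each genotype. Without centring, this held for *Spi1* only. How many of all tested genes were lower in both genotypes was not counted, so the overlap does not set these 3 apart.

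In the comparison of genotypes in SiglecF hi, none of the 9 factors was past the threshold, beside 2.64% of tested genes as higher and 4.09% as lower. *Irf8* was lowest with −0.38 (−0.49 to −0.28), followed by *Cebpa* with −0.28 (−0.35 to −0.21) and *Cebpd* with −0.13. The other 6 lay between −0.03 for *Klf6*, whose sign changed under other scalings, and 0.12 for *Klf2*, and the interval of *Cebpe*, −0.23 to 0.34, shows how little its counts can resolve. The median of the 9 was 0.05.

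In the comparison of genotypes in SiglecF lo, 1 of the 9 factors was past the threshold as higher, *Cebpe*, beside 17.2% of tested genes, and 0 as lower, beside 19.1%. Its ratio was 0.58 with an interval of 0.16 to 1.00, which reaches below the threshold. *Cebpa* was higher by 0.48 (0.33 to 0.63), close under the threshold. *Spi1* and *Klf6* were both higher by 0.20, and *Cebpd* was lower with −0.34 (−0.42 to −0.26). *Irf8* had −0.20 (−0.37 to −0.02), while *Cebpb* with 0.05, *Klf2* with 0.02 and *Klf4* with −0.01 lay near 0, and the sign of *Klf4* changed to 0.03 with median-of-ratios scaling. The median of the 9 was again 0.05, with 6 ratios above 0 and 3 below.

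*Cebpa* thus had genotype ratios on opposite sides of 0 in the fractions, with counting intervals that exclude 0 in each. The ratio in SiglecF hi minus that in SiglecF lo was −0.76 for *Cebpa* (−0.92 to −0.60). Of the 6523 tested genes, 1015 (15.6%) had intervals on opposite sides of 0, and 488 (7.48%) did so in the direction of *Cebpa*. The same difference was −0.53 for *Cebpe* (−1.04 to −0.02), −0.23 for *Klf6* (−0.28 to −0.18), 0.20 for *Cebpd* (0.09 to 0.32) and −0.19 for *Irf8* (−0.39 to 0.01). It lay between −0.11 for *Spi1* and 0.10 for *Klf2* in the other 4 factors. Among the 9, *Cebpa* was the only factor with intervals on opposite sides.

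*Cebpa* and *Irf8* were the 2 factors whose range over the 4 libraries exceeded 1 on the log2 scale. The tested genes with the profile closest to *Cebpa* over the 4 libraries were *Lrp1*, at a root mean square distance of 0.042 on the log2 scale, *Galnt2* at 0.044 and *Cat* at 0.046. *Lrp1* had 40.5 TPM in WT SiglecF lo, 143 TPM in WT SiglecF hi, 60.9 TPM in *Cd300a*-/- SiglecF lo and 118 TPM in *Cd300a*-/- SiglecF hi, which are also close to *Cebpa* in absolute level. For *Irf8* the closest were *Bgn* at 0.018, *Hyou1* at 0.019 and *Lyz2* at 0.024. *Bgn* had 180 TPM in WT SiglecF lo, 360 TPM in WT SiglecF hi, 155 TPM in *Cd300a*-/- SiglecF lo and 279 TPM in *Cd300a*-/- SiglecF hi. The profiles are given as a description of level only.

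The marker lists of other cells show what else moved with *Cebpa* and *Irf8*. All 11 macrophage markers were above 0 in every library, none of the defining ones was at 0, and *C1qb* was the most abundant. Their summed level was 2930 TPM in WT SiglecF lo, 7185 TPM in WT SiglecF hi, 2792 TPM in *Cd300a*-/- SiglecF lo and 6512 TPM in *Cd300a*-/- SiglecF hi. *C1qb* itself had 839, 2257, 754 and 2036 TPM in that order. Between fractions in WT, 7 of the 11 were past the threshold as higher in SiglecF hi and 1, *Lyve1* with −1.05, as lower, with a centred median of 0.68. In *Cd300a*-/- 4 were higher and 1, *Lyve1* with −0.57, was lower, with a median of 0.37. Between genotypes, 2 of 11 were higher and 0 lower in SiglecF hi, and 2 were higher and 1 lower in SiglecF lo. Macrophages express many of the 9 factors, and the sum was higher in the same libraries as the TPM of *Cebpa* and *Irf8*. Their part in these results was not tested. The 4 monocyte markers, all above 0 in every library, had sums of 984 TPM in WT SiglecF lo, 605 TPM in WT SiglecF hi, 897 TPM in *Cd300a*-/- SiglecF lo and 520 TPM in *Cd300a*-/- SiglecF hi, with *Ly6c2* the most abundant. *Ly6c2* carried the lower sums in SiglecF hi, with 756 TPM in WT SiglecF lo, 270.3 TPM in WT SiglecF hi, 706 TPM in *Cd300a*-/- SiglecF lo and 226 TPM in *Cd300a*-/- SiglecF hi, and the other 3 together were not lower there in TPM. After centring, *Ly6c2* (−2.01 in WT, −2.25 in *Cd300a*-/-) and *Ccr2* (−0.53 and −0.54) were past the threshold as lower in SiglecF hi, and 0 were higher. Between genotypes, 0 of the 4 were past it in SiglecF hi, and 1, *Cx3cr1* with −0.73, was lower in SiglecF lo.

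Fibroblast markers, 8 of 8 above 0 in each library and led by *Dcn*, summed to 1026 TPM in WT SiglecF lo, 2196 TPM in WT SiglecF hi, 1047 TPM in *Cd300a*-/- SiglecF lo and 1546 TPM in *Cd300a*-/- SiglecF hi. Endothelial markers, 9 of 9 above 0 and led by *Fabp4*, summed to 561, 340, 177 and 447 TPM in that order. Cardiomyocyte markers, 6 of 6 above 0 and led by *Mb*, summed to 43.7, 48.7, 25.8 and 82.0 TPM. Endothelial cells express *Klf2*, *Klf4* and *Klf6* as well, and their part in the levels of these genes was not tested. Of the 7 fibroblast markers tested, 4 were past the threshold as higher in SiglecF hi and 0 as lower in WT, with a centred median of 0.58. In *Cd300a*-/- 0 were higher and 2 lower, with a median of −0.24. Between genotypes, 0 were higher and 4 lower in *Cd300a*-/- in SiglecF hi, with a median of −0.63, where *Cebpa* and *Irf8* were also lower, and 1 was higher and 0 lower in SiglecF lo. Of the 7 endothelial markers tested, 7 were past the threshold as lower in SiglecF hi in WT, and in *Cd300a*-/- 2 were higher and 1 lower. Between genotypes 6 of them were lower in SiglecF lo and 0 higher, and in SiglecF hi 2 were higher and 1 lower. The part of fibroblasts in the results was not tested either.

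The other leukocyte lists differed in level. The dendritic cell list, led by *Cd209a*, summed to 13.5 TPM in WT SiglecF lo, 5.69 TPM in WT SiglecF hi, 2.45 TPM in *Cd300a*-/- SiglecF lo and 7.10 TPM in *Cd300a*-/- SiglecF hi. In the same order, the B cell list, led by *Cd79b*, summed to 5.09, 8.55, 6.22 and 14.2 TPM, and the T and NK cell list, led by *Cd3d*, to 6.45, 2.44, 4.73 and 5.00 TPM. The eosinophil list, led by *Ear2*, summed to 173, 117, 87.9 and 120 TPM, with *Epx* at 0 in all 4 libraries. The mast cell genes *Mcpt4*, *Cpa3* and *Cma1* were at 0 in all 4. Surface SiglecF also marks eosinophils, and another gene of that list, *Ccr3*, chosen here after its values were seen, had 1.49 TPM in WT SiglecF lo, 4.91 TPM in WT SiglecF hi, 1.78 TPM in *Cd300a*-/- SiglecF lo and 5.49 TPM in *Cd300a*-/- SiglecF hi. In the same order, *Ear2* had 171, 110, 85.9 and 113 TPM, and *Il5ra* had 0.653, 0.351, 0.197 and 0.320 TPM. Both were thus lower in SiglecF hi in WT, unlike *Ccr3*, and higher there in *Cd300a*-/- in TPM. *Prg2*, *Ear1* and *Ear6* were above 0 in WT SiglecF hi only, and *Prg3* in *Cd300a*-/- SiglecF hi only. The part of eosinophils in the results was not tested.

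Genes known as targets of each factor, and relatives in its family, were read by the same rule. They are described by how many lay past the threshold in each direction, and the shares of all tested genes given above are the yardstick. Ratios in these lists are centred, and between fractions the uncentred ratio is higher by 0.53 in WT and by 0.61 in *Cd300a*-/-. The C/EBP epsilon granule genes (*Ltf*, *Lcn2*, *Camp*, *Ngp*, *Mmp8* and *Mmp9*, all 6 tested) summed to 6197 TPM in WT SiglecF lo, 1669 TPM in WT SiglecF hi, 14042 TPM in *Cd300a*-/- SiglecF lo and 2880 TPM in *Cd300a*-/- SiglecF hi. *Lcn2* was the most abundant with 2385, 242, 6124 and 568 TPM in that order. All 6 were past the threshold as lower in SiglecF hi in each genotype, furthest for *Ngp* with −6.93, *Camp* with −6.17 and *Lcn2* with −3.82 in WT. In *Cd300a*-/- the furthest were *Lcn2* with −4.04 and *Mmp8* and *Ngp* with −4.01 each. Between genotypes, 5 of 6 were higher in *Cd300a*-/- in SiglecF hi, led by *Ngp* with 4.36, *Camp* with 2.90 and *Ltf* with 1.66. In SiglecF lo 5 of 6 were also higher, led by *Mmp8* with 1.43, *Ngp* with 1.41 and *Lcn2* with 1.38. Beside these genes, the centred ratio of *Cebpe* was 0.58 between genotypes in SiglecF lo and 0.05 in SiglecF hi, where its interval included 0. Between fractions it was 0.22 in WT, with an interval that included 0, and −0.34 in *Cd300a*-/-, and both were above 0 uncentred.

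Of the 6 C/EBP alpha genes, which include the primary granule proteases, only *Csf3r* and *Il6ra* passed the limit on TPM. *Csf3r*, the most abundant, was lower in SiglecF hi by a ratio of −0.96 in WT and −1.27 in *Cd300a*-/-, and *Il6ra* was higher in *Cd300a*-/- SiglecF lo by 0.51. In SiglecF hi 0 of the 2 were past the threshold between genotypes. The proteases *Mpo*, *Elane*, *Prtn3* and *Ctsg* stood below the limit on the mean, while *Cebpa* passed it. *Prtn3* came closest, with 2.77 TPM in WT SiglecF lo, 11.7 TPM in WT SiglecF hi, 10.9 TPM in *Cd300a*-/- SiglecF lo and 14.3 TPM in *Cd300a*-/- SiglecF hi. The highest level in any library was 1.73 TPM for *Mpo*, 3.05 TPM for *Elane* and 1.78 TPM for *Ctsg*.

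Of the 6 C/EBP beta genes, 5 were tested, and *Il1b* was the most abundant with 9239 TPM in WT SiglecF lo, 9987 TPM in WT SiglecF hi, 6637 TPM in *Cd300a*-/- SiglecF lo and 12137 TPM in *Cd300a*-/- SiglecF hi. *Nos2* was the 1 gene past the threshold in *Cd300a*-/- over WT in SiglecF hi, with 0.86. In SiglecF lo *Nos2* was higher with 2.45, and *Il6* was lower with −1.84. Between fractions in WT, *Nos2* with −1.84 and *Il6* with −0.84 were lower in SiglecF hi. In *Cd300a*-/-, *Ptgs2* with 0.84 was higher and *Nos2* with −3.46 was lower. *Nos2* had 5.85 TPM in WT SiglecF lo, 1.77 TPM in WT SiglecF hi, 36.2 TPM in *Cd300a*-/- SiglecF lo and 4.15 TPM in *Cd300a*-/- SiglecF hi. It passed the limit on the mean only through the library where it was high, so that its ratios against that library had to be large.

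The other C/EBP genes are *Cebpg*, a partner without an activation domain of its own, and *Ddit3*, a stress factor. *Ddit3* was the more abundant, with 150 TPM in WT SiglecF lo, 138 TPM in WT SiglecF hi, 102 TPM in *Cd300a*-/- SiglecF lo and 143 TPM in *Cd300a*-/- SiglecF hi. It was past the threshold as lower in *Cd300a*-/- over WT in SiglecF lo (−0.53) and in SiglecF hi over SiglecF lo in WT (−0.64). *Cebpg* was past it in 0 of the 4 comparisons, and neither gene was past it in the other 2.

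All 7 PU.1 genes were tested, and *Csf3r*, which also belongs to the C/EBP alpha list, was the most abundant. In SiglecF hi over SiglecF lo 3 were lower in WT, *Csf3r* with −0.96, *Itgam* with −0.65 and *Itgb2* with −0.57. In *Cd300a*-/- 4 were lower, furthest *Csf3r* with −1.27, *Itgam* with −1.12 and *Itgb2* with −0.95. The shares of all tested genes were 20.9% and 23.6%, and 0 of the 7 were past the threshold as higher in either genotype. The median of the 7 was −0.46 in WT and −0.85 in *Cd300a*-/- when centred, and 0.07 and −0.24 uncentred, so that its direction in WT flips with the scaling. Between genotypes in SiglecF lo, *Itgam* with 0.60 and *Csf2ra* with 0.58 were higher and *Fcgr1* with −1.21 was lower, and in SiglecF hi 0 of 7 were past the threshold.

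Of 15 other ETS family genes, 11 were tested, with *Ets2* the most abundant. *Elk4* was higher in *Cd300a*-/- SiglecF hi by 0.53, *Elk3* was lower in *Cd300a*-/- SiglecF lo with −0.54, and *Ets1* with −1.21, *Elk4* with −0.64 and *Etv6* with −0.56 were lower in SiglecF hi in WT. In *Cd300a*-/- 0 of the 11 were past the threshold between fractions, where *Spi1* was.

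Of 14 other KLF family genes, 6 were tested, *Klf10* was the most abundant and *Klf17* was at 0 in all 4 libraries. Between fractions, *Klf3* with −1.37, *Klf9* with −1.06 and *Klf7* with −0.59 were lower in SiglecF hi in WT, and *Klf3* with −1.42, *Klf7* with −0.79 and *Klf13* with −0.71 in *Cd300a*-/-. Between genotypes, *Klf9* was higher in SiglecF hi with 0.65 and lower in SiglecF lo with −0.89, and *Klf11* was higher in SiglecF lo with 0.64. The family thus held genes past the threshold where *Klf2*, *Klf4* and *Klf6* were not. Of the 4 KLF2 genes, 3 were tested. *Thbd* with −0.59 was the 1 gene past the threshold in *Cd300a*-/- over WT in SiglecF lo. In SiglecF hi 0 of 3 were past it between genotypes.

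Of 8 other IRF family genes, 6 were tested, and *Irf7* was the most abundant. Between genotypes 0 of 6 were past the threshold in either fraction. Between fractions, *Irf3* with 0.50, just past the threshold, was higher and *Irf9* with −0.70 lower in SiglecF hi in WT, and *Irf9* with −1.005 and *Irf2* with −0.70 were lower in *Cd300a*-/-. Of 4 IRF8 genes, 3 were tested, and *Cst3* was the most abundant. *Cst3* was lower in *Cd300a*-/- SiglecF lo with −0.68, the direction of *Irf8* there. In SiglecF hi 0 of 3 were past the threshold between genotypes.

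Of 27 other regulators of blood lineages, 19 were tested, *Nr4a1* was the most abundant and *Gata1* was at 0 in all 4 libraries. Between genotypes 0 of 19 were past the threshold in SiglecF hi. In SiglecF lo 3 were higher, *Rara* with 1.04, *Bach1* with 0.66 and *Zeb2* with 0.54, and 3 were lower, *Id1* with −1.05, *Lyl1* with −0.78 and *Lmo2* with −0.57. In SiglecF hi over SiglecF lo in WT 4 were higher, among them *Lyl1* with 1.05 and *Maf* with 0.75, and 3 were lower, *Id1* with −1.57, *Trib1* with −0.62 and *Bcl6* with −0.57. In *Cd300a*-/- 4 were higher, led by *Lyl1* with 1.62, *Egr2* with 0.78 and *Nr4a1* with 0.69, and 6 were lower, led by *Rara* with −1.30, *Bach1* with −0.88 and *Trib1* with −0.72. Among all tested genes, too, fewer were past the threshold between genotypes in SiglecF hi (2.64% higher and 4.09% lower) than in SiglecF lo (17.2% and 19.1%). The 4 tissue neutrophil factors *Runx1*, *Relb*, *Irf5* and *Junb*, with *Junb* the most abundant, had 0 of 4 past the threshold in each of the 4 comparisons.

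Genes induced by tissue dissociation include partners of C/EBP factors, and all 15 of that list were tested. Their summed level was 10898 TPM in WT SiglecF lo, 13233 TPM in WT SiglecF hi, 9742 TPM in *Cd300a*-/- SiglecF lo and 14505 TPM in *Cd300a*-/- SiglecF hi, with *Junb* the most abundant. Between genotypes 0 of 15 were past the threshold in SiglecF hi, and in SiglecF lo *Hspa1b* was higher with 1.23 and *Hspa1a* lower with −0.62. In SiglecF hi over SiglecF lo in WT 1 was higher, *Hspa1b* with 0.77, and 4 were lower, furthest *Hspa1a* with −0.62, *Dusp1* with −0.61 and *Btg2* with −0.58. In *Cd300a*-/-, *Nr4a1* with 0.69 and *Ier3* with 0.57 were higher and *Hspa1b* with −0.74 and *Dusp1* with −0.52 were lower. The sum was higher in the SiglecF hi libraries, as were the TPM of *Klf2*, *Klf4* and *Klf6*, and the part of handling in these levels was not tested.

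In the files' coordinates (GRCm39 by the submitters' processing notes), *Cebpa* lies at chr7:34818718-34821353 on the plus strand, *Cebpb* at chr2:167530835-167532338 on the plus strand, *Cebpd* at chr16:15705150-15708895 on the plus strand and *Cebpe* at chr14:54947817-54949631 on the minus strand. *Spi1* lies at chr2:90912735-90946101 on the plus strand. *Klf2* lies at chr8:73072877-73075500 on the plus strand, *Klf4* at chr4:55527143-55532466 on the minus strand and *Klf6* at chr13:5911481-5920393 on the plus strand. *Irf8* lies at chr8:121463097-121483433 on the plus strand. Of the 9 genes, 3 (*Cebpa*, *Cebpb* and *Cebpd*) have a transcript of 1 exon in the GENCODE M21 basic annotation.

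For 2 factors the listed position overlaps a gene on the other strand. *Cebpb* shares 908 bases with *Tmem189*, whose counts were 6.40% of those of *Cebpb* in WT SiglecF lo, 9.31% in WT SiglecF hi, 8.79% in *Cd300a*-/- SiglecF lo and 8.71% in *Cd300a*-/- SiglecF hi. *Cebpd* shares 1808 bases with *Spidr*, whose counts were 11.03%, 12.1%, 17.6% and 20.9% of those of *Cebpd* in that order. Without the strand, reads from the shared bases cannot be told apart. These are counts over the whole of each neighbour, not over the shared bases.

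Promoter sequences from RefSeq on GRCm38.p6, 250 bases before to 50 after the start, were matched for 6 of the 9 genes and gave 7 promoters, 2 of them for *Irf8*. *Cebpd*, *Cebpe* and *Spi1* were not among them. The median GC content of the 7 promoters was 69.3%, beside 52.7% over all 32851 promoters. TATAAA, the core of the TATA box, was found on either strand in 3 of the 7, at *Cebpa*, *Cebpb* and the upstream promoter of *Irf8*, beside 13.6% of all promoters. Its first base lay 30 bases before the start of *Cebpa*, 31 before that of *Irf8*, and 22 after that of *Cebpb*. Of the letters bound by the factors themselves, TTGCNNAA for C/EBP factors was in 0 of 7, beside 10.8% of all promoters. Its shorter form TTGCG, which can overlap it, was in that of *Cebpa*, beside 17.4%. GAGGAA for PU.1 was in 0 of 7, beside 28.3%, and TTCNNTTC for IRF factors in 0 of 7, beside 20.1%. CACCC for KLF factors was found at *Cebpa*, *Cebpb* and *Klf2*, beside 57.5% of all promoters. A match is a description and not a binding site.

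*Cebpa* and *Irf8*, the factors with a range over 1 and with higher TPM in SiglecF hi in each genotype, both have TATAAA close before the start. The 200 bases before the start are therefore shown, *Cebpa* from chr7:35119093-35119292 and *Irf8* from chr8:120736158-120736357, both GRCm38.p6 and plus strand, 5′ to 3′. Capitals mark TATAAA and TTGCG.
Cebpa: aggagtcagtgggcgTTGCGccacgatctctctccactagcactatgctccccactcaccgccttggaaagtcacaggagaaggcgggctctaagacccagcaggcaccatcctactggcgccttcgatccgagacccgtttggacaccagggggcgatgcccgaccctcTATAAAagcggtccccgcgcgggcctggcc
Irf8: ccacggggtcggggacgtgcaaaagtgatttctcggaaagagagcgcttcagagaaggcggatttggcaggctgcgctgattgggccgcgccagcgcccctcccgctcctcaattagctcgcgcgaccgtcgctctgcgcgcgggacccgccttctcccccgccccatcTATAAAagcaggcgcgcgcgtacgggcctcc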

How the data were processed

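RNA was sequenced from 4 sorted neutrophil libraries, 1 per genotype and fraction. The authors counted against GRCm39, per the submitters' processing notes, and deposited counts per gene, RPKM, TPM and a signal named CPM, scaled by library. TPM and counts were used here, and RPKM and the signal were not used here. Genes with a mean over 10 TPM were tested, and ratios used a pseudocount of 1 and a threshold of 0.5 on the log2 scale. Intervals at 95% come from the Poisson error of the counts. No test was run, with 1 library per group. Alternatives were a pseudocount of 0.1, a limit of 1 TPM, no limit, no centring, TMM scaling (edgeR 4.0.16, R 4.3.3), median-of-ratios scaling and a threshold of 1. Python 3.11.15, pandas 2.3.3, numpy 2.4.6, scipy 1.17.1 and matplotlib 3.10.9 were used, and the steps were tested on simulated data. From most lists the text names the most abundant gene and, per comparison, up to 3 genes furthest past the threshold in each direction. The genes that check the labels, marker genes at 0, the 3 nearest profiles and overlapping genes are also named. Members and lists were chosen with earlier results of these data known. *Ddit3* is listed as 2 entries, and the one with counts was used.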

Additional observations from a re-analysis of the deposited data

Results flagged for a closer look

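*Cebpa* drew a closer look because its difference between genotypes had opposite directions in the fractions, each with a counting interval that excludes 0. In SiglecF hi cells the centred log2 ratio of *Cd300a*-/- over WT came to −0.28. It came to 0.48 in the SiglecF lo fraction, and the former minus the latter gave −0.76. With 1 library per group, this difference was not tested.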

How the results depend on the processing

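For the ratios of the 9 factors, 36 in all, the sign was kept for 36 with a pseudocount of 0.1, 36 with a limit of 1 TPM, 35 with no limit, 28 without centring, 36 with TMM scaling and 34 with median-of-ratios scaling. All 8 ratios past the threshold kept their sign in all 6 of these alternatives, from 0.57 to 0.63 for *Cebpe* between genotypes in SiglecF lo and from 1.12 to 1.72 for *Cebpa* between fractions in WT. Without centring, *Cebpb* (−0.31 in WT, −0.20 in *Cd300a*-/-) and *Cebpd* in *Cd300a*-/- (−0.41) were no longer past it.

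Between genotypes in SiglecF lo, the count of higher factors was 2 with median-of-ratios scaling, where *Cebpa* joins at 0.52, and 0 at a threshold of 1, and the median was 0.09 with median-of-ratios scaling. Between fractions in WT, the count of higher factors was 2 with no limit and 3 without centring, and the median was −0.11, 0.28 and −0.33 with no limit, without centring and with median-of-ratios scaling. Between fractions in *Cd300a*-/-, the count of higher factors was 1 with no limit and 2 without centring, the count of lower factors was 1 without centring, and the median was 0.27 without centring and −0.15 with no limit. Between fractions, a ratio without centring has no median subtracted, and the ratio with no limit has the smaller median of all genes above 0 subtracted. The cause of the moves under median-of-ratios scaling was not tested. Depth limits *Cebpe*, with 61 to 182 counts per library. The spread between mice is unknown.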
